A study of Homo sapiens with 28 samples.

Results

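The positions of 2 DNA-binding proteins, ZHX2 and CTCF, were compared in normoxic T47D cells, an established luminal breast cancer line. The comparison used every peak of the normoxia ZHX2 list (14586 peaks) and of the normoxia CTCF list (88248 peaks) on chromosomes 1 to 22 and X, which made 102834 of the 349107 peaks in the 8 lists of the series. A peak is a stretch of the genome where chromatin immunoprecipitation followed by sequencing (ChIP-seq) recovered more DNA than background, and its summit is the base of highest signal. The series holds 28 samples. Each list stands for 2 immunoprecipitated samples of T47D cells, either in normoxia (ZHX2, CTCF and acetylated lysine 27 of histone H3, H3K27ac) or in hypoxia (the same antibodies, and Flag in cells carrying wild-type, WT, or PA mutant ZHX2). The growth protocol names lentivirus infection followed by drug selection, and all Flag samples used here were hypoxic. Each group has 1 list and no values per replicate, so no difference below has a replicate check and no p-value is given. Intervals in brackets are 95% Wilson intervals over peaks or genes, cover counting error only, and are too narrow for neighbouring peaks that are not independent. Coordinates are those of GRCh38.

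ZHX2 belongs to a small family of nuclear proteins with zinc fingers and homeodomains, and it is known as a substrate of the VHL ubiquitin ligase, the same ligase that degrades HIF proteins when oxygen is present. CTCF is a zinc finger protein that binds a long, well-conserved motif and stops cohesin as it extrudes chromatin loops, so it marks loop anchors and domain boundaries. H3K27ac marks active promoters and enhancers. As a check of the cell line, 9 of 10 luminal markers had a normoxia H3K27ac peak within 1 kb of a gene end. TFF1 was the exception. The counts were 2 of 6 for basal or myoepithelial, 2 of 6 for immune and 2 of 6 for stromal and endothelial markers. Of all protein-coding genes 64.4% had such a peak, so these small counts are a coarse check.

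The promoters below show what the groups of sites look like in sequence. They are 300-base windows from RefSeq (GRCh38.p14), 250 bases before and 50 after the start of transcription, read 5′ to 3′ on the strand of the gene. Capitals mark AGGGGGC or AGATGGC on either strand, AGGGGGC being a short core of the CTCF motif and AGATGGC a run that its variable consensus also allows and that the YY1-type sequence AAGATGGCG contains. DENND6B (chr22:50326963-50327262, minus strand), a Rab regulator, and BNIP1 (chr5:173144281-173144580, plus strand), a membrane fusion protein of the endoplasmic reticulum, held the summits of both proteins inside the window. In DENND6B the ZHX2 summit lay 35 bp after the start and the CTCF summit 108 bp before it, with the core at -97. In BNIP1 the ZHX2 summit lay at -1 and the CTCF summit at -77, with the core at -85. RHOT2 (chr16:667833-668132, plus strand), a mitochondrial transport GTPase, held a ZHX2 summit at -102 and a CTCF summit at -75 with none of these letters.

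DENND6B: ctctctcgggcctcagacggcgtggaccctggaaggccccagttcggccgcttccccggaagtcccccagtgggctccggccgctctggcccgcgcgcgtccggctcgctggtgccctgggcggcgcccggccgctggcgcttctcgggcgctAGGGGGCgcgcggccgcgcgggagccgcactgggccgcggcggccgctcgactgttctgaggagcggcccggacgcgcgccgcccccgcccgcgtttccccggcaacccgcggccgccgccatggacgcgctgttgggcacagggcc

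BNIP1: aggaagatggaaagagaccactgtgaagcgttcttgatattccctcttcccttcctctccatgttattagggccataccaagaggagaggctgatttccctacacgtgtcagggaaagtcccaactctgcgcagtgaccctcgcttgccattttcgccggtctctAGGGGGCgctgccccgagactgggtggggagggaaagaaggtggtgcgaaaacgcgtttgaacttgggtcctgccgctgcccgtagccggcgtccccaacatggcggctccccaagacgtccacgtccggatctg

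RHOT2: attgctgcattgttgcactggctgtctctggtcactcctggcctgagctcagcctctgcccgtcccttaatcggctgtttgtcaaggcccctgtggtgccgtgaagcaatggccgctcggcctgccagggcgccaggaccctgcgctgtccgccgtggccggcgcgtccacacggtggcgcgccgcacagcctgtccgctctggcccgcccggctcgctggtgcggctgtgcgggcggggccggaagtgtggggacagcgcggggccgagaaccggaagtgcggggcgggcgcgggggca

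AP1G1 (chr16:71808785-71809084, minus strand), a subunit of a clathrin adaptor, and ZNF41 (chrX:47482555-47482854, minus strand), a zinc finger gene, stand for genes with ZHX2 and no CTCF peak. Their ZHX2 summits lay at -132 and -150. The AP1G1 window held neither run, and ZNF41 held AGATGGC at -112, there as a part of AAGATGGCG.

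AP1G1: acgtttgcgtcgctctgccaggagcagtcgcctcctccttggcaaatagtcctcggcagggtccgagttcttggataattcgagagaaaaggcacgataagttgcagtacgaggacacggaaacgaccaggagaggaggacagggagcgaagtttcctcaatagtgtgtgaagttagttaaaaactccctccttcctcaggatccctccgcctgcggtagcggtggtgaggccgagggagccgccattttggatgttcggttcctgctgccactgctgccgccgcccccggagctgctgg

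ZNF41: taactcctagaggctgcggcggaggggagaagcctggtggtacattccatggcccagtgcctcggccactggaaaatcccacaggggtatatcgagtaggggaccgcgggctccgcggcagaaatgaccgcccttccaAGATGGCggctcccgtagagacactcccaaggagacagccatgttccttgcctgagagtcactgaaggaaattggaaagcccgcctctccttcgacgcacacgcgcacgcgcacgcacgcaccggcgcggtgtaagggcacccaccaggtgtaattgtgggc

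KCNH1 (chr1:211134099-211134398, minus strand), a voltage-gated potassium channel, and ARHGAP22 (chr10:48656216-48656515, minus strand), a regulator of Rac, stand for genes with CTCF and no ZHX2 peak. Their CTCF summits lay at -120 and -166, and their cores at -80 and -170.

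KCNH1: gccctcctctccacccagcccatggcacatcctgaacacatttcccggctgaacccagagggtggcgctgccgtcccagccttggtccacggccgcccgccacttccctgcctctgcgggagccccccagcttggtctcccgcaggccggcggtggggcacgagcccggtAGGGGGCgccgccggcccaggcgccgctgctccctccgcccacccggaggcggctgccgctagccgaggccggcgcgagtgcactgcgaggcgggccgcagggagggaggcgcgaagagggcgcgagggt

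ARHGAP22: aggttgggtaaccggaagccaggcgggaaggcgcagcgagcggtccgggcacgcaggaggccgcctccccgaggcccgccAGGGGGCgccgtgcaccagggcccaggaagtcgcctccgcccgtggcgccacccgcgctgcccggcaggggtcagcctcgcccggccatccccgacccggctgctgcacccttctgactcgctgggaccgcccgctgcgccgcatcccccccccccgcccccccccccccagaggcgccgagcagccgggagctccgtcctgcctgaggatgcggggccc

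ZHX2 lay at CTCF sites often, and CTCF lay mostly away from ZHX2. Of the 14586 ZHX2 peaks, 6353 overlapped a CTCF peak by at least 1 bp (43.6%, 42.8 to 44.4%). Of the 88248 CTCF peaks, 6163 overlapped a ZHX2 peak (6.98%, 6.82 to 7.15%). The lists differ in length and in threshold: ZHX2 peaks covered 5.84 Mb with a lowest −log10 q of 1.30, and CTCF peaks covered 50.6 Mb with a lowest −log10 q of 5.00. The contacts were close to one-to-one. Of the ZHX2 peaks with CTCF, 6196 touched exactly 1 CTCF peak and 157 touched more, while 344 CTCF peaks touched more than 1 ZHX2 peak. The 6525 pairs shared a median of 288 bp, beside a median width of 366 bp for the ZHX2 peaks with CTCF. The ZHX2 summit lay inside the CTCF peak for 83.0% of the ZHX2 peaks with CTCF, and the CTCF summit lay inside the ZHX2 peak for 61.5% of the CTCF peaks with ZHX2. Few calls sat at the edge, since 195 pairs shared 50 bp or less and 142 ZHX2 peaks without CTCF ended within 50 bp of a CTCF peak. The share of ZHX2 peaks with CTCF ranged over chromosomes from 35.3% on chromosome 8 to 53.3% on chromosome 2. It rests on the long CTCF list: with the upper 50% of each list by score it was 26.9%, with the CTCF list reduced to the 14586 highest-scoring peaks 11.9%, and with summits within 250 bp as the rule 27%.

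The summits crowded together without coinciding. From each ZHX2 summit the nearest CTCF summit was a median of 994 bp away (quartiles 216 and 7509 bp). Within 50 bp lay 1258 ZHX2 summits (8.62%), within 100 bp 2172 (14.9%, 14.3 to 15.5%) and within 250 bp 3943 (27%), and 3086 (21.2%) were more than 10 kb from any CTCF summit. Counted per bp of distance, ZHX2 summits were about as frequent from 0 to 10 bp (26.1 per bp) as from 10 to 25 bp (26.2). The frequency then fell to 18.5 between 50 and 100 bp, 9.28 between 200 and 250 bp, 1.27 between 1 and 2 kb and 0.0600 between 10 and 50 kb. The drop was steady, with no second rise at a fixed spacing in these bins. In the hypoxia lists the curve had the same shape with somewhat more summits close by: 18.2% of ZHX2 summits lay within 100 bp of a hypoxia CTCF summit (17.8 to 18.6%).

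**Figure D1:**
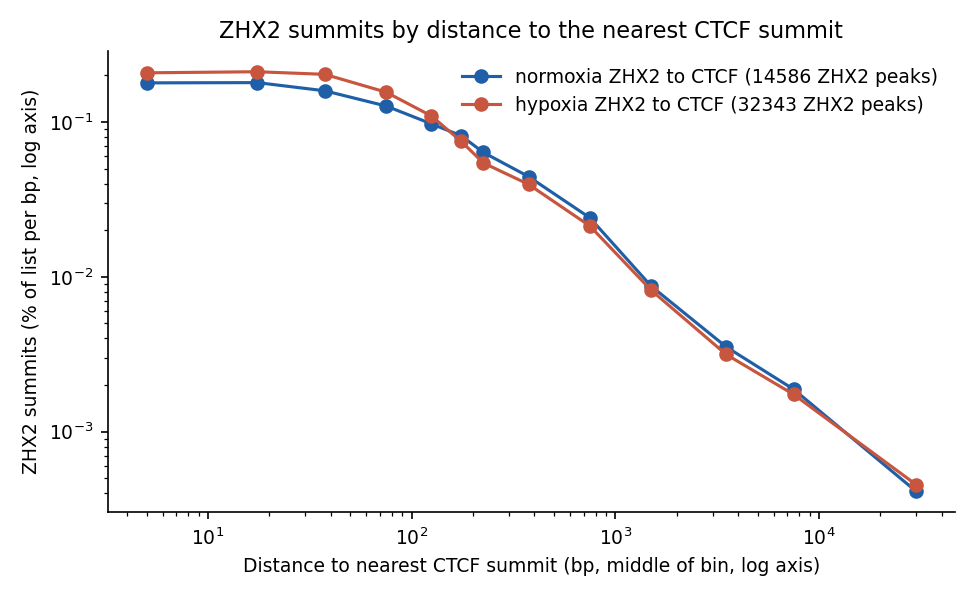
Frequency of ZHX2 summits (percent of the list per bp, log axis) against the distance to the nearest CTCF summit (bp, log axis), with normoxia in blue and hypoxia in red and each point at the middle of a distance bin. Both curves are flat over the shortest bins and fall through every later bin up to 50 kb.

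How far apart summits of the same protein lie gives a scale for these distances. Where CTCF peaks of normoxia and hypoxia overlapped, their summits were a median of 10 bp apart and 92.2% were within 50 bp (n = 72672). Overlapping ZHX2 peaks of normoxia and hypoxia had summits a median of 72 bp apart, with 40.7% within 50 bp (n = 9124). Overlapping normoxia ZHX2 and CTCF peaks had summits a median of 174 bp apart (quartiles 68 and 388 bp), with 19.8% within 50 bp and 34.2% within 100 bp (n = 6353). The same order held at identical places. The 5599 ZHX2 peaks with both normoxia CTCF and hypoxia ZHX2 lay a median of 74 bp from the hypoxia ZHX2 summit and 177 bp from the normoxia CTCF summit. CTCF summits that overlapped ZHX2 moved a median of 13 bp between conditions (n = 5613). ZHX2 summits therefore lay farther from CTCF summits than either protein's summits lay from their own in the other condition. Peak width went with the distance, with a median of 126 bp for CTCF peaks up to 500 bp wide and 209 bp for wider ones, and the part of width in the distance was not tested.

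**Figure D2:**
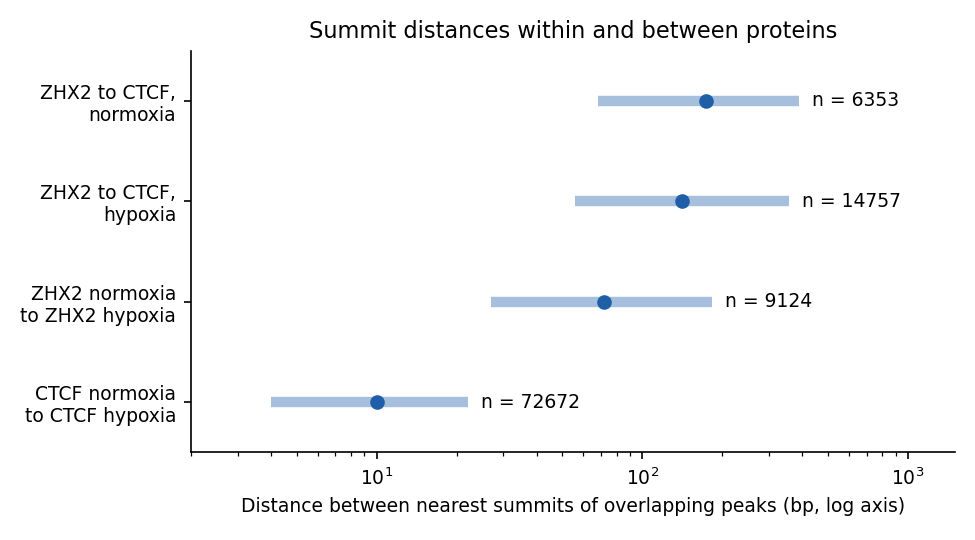
Distance between the nearest summits of overlapping peaks (bp, log axis) within CTCF, within ZHX2 and between the proteins, where points are medians, bars run from the lower to the upper quartile and n is the number of peaks. The medians are 10, 72, 141 and 174 bp from the bottom row to the top row.

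Pairs with summits within 50 bp and high fold for both proteins lay at named genes. At HOXB5, a homeobox gene, the summits were 6 bp apart (ZHX2 chromosome 17, 48593909 to 48594357, fold 9.10; CTCF 48593795 to 48594563, fold 372), the fold being the authors' enrichment over background. Beside CCDC124 they were 10 bp apart (ZHX2 fold 7.20, CTCF fold 342), inside CCR10, a chemokine receptor gene, 20 bp (8.48 and 346), beside RHOT2 27 bp (7.48 and 408) and inside DNAAF5, a dynein assembly factor, 35 bp (10.9 and 308). The sixth pair, 48 bp apart (8.38 and 297), lay 23293 bp from TPRA1. All 6 had ZHX2 and CTCF peaks in hypoxia too, beside 88.1 and 89.7% of all ZHX2 peaks with CTCF. WT Flag peaks were present at the pairs near TPRA1, RHOT2 and CCDC124 and absent at HOXB5, CCR10 and DNAAF5. Of all ZHX2 peaks with CTCF 75.6% had a WT Flag peak.

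Co-location followed acetylation and gene ends. Of ZHX2 peaks within 1 kb of a protein-coding gene end and on an H3K27ac peak, 3678 of 4834 overlapped CTCF (76.1%, 74.9 to 77.3%). At gene ends without H3K27ac the share was 28% (303 of 1084), away from gene ends with H3K27ac 51.2% (1757 of 3430), and away from gene ends without H3K27ac 11.7% (615 of 5238). In the last group the overlapping pairs had the closest summits, with 42.9% within 100 bp (39.1 to 46.9%) against 32.3% (30.8 to 33.9%) at acetylated gene ends.

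ZHX2 peaks with CTCF also held the other marks more often than ZHX2 peaks without it. H3K27ac covered 85.6% (84.7 to 86.4%) of those with CTCF and 34.4% (33.3 to 35.4%) of those without, a difference of 51.2 percentage points. Hypoxia ZHX2 overlapped 88.1% and 42.8%, WT Flag 75.6% and 25.8%, and PA Flag 67.1% and 21.9%. Hypoxia CTCF overlapped 89.7% and 6.77%. Because the peaks were split by CTCF in normoxia, the hypoxia CTCF shares are not an independent readout. ZHX2 peaks with CTCF were wider (median 366 against 270 bp) and had nearly the same fold (median 3.43 against 3.28). With all peaks of both proteins cut to 200 bp around the summit the differences were 38.1 percentage points for H3K27ac, 32.8 for hypoxia ZHX2 and 33.7 for WT Flag. Along the score the difference varied most for hypoxia ZHX2, where it was 53.5 percentage points in the lowest of 4 equal groups of the list by score and 17.0 in the highest. With the upper 50% of each list the differences were 28.2, 20.1 and 27.6.

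Seen from the CTCF side, peaks with ZHX2 were a small acetylated subset. H3K27ac covered 86.1% of the 6163 CTCF peaks with ZHX2 and 23.4% of the 82085 without, and 63.8% and 12.5% lay within 1 kb of a gene end. Their folds were more spread, with a lower median (17.3 against 19.1) and a higher upper quartile (108 against 70.6), and their median width was larger (764 against 437 bp). CTCF peaks with normoxia ZHX2 overlapped hypoxia CTCF in 91.1% and those without in 81.7%.

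Overlap rose with ZHX2 score and had no such trend with CTCF score. From the lowest to the highest decile of ZHX2 peaks by score the share with CTCF went from 33.3% (30.9 to 35.8%) to 57.2% (54.7 to 59.7%). The median width of the ZHX2 peaks rose along the same deciles from 266 to 686 bp, and the part of width in the rise was not tested. Of CTCF peaks 8.95% overlapped ZHX2 in the lowest decile, 4.25% in the ninth, and 15.0% (14.3 to 15.7%) in the highest. The highest CTCF decile also had the most H3K27ac (43.6%), 22.1% of its peaks at gene ends, and the shortest median summit distance to ZHX2 (123 bp). Its neighbour, the ninth, had 25% on H3K27ac and 12.4% at gene ends.

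**Figure D3:**
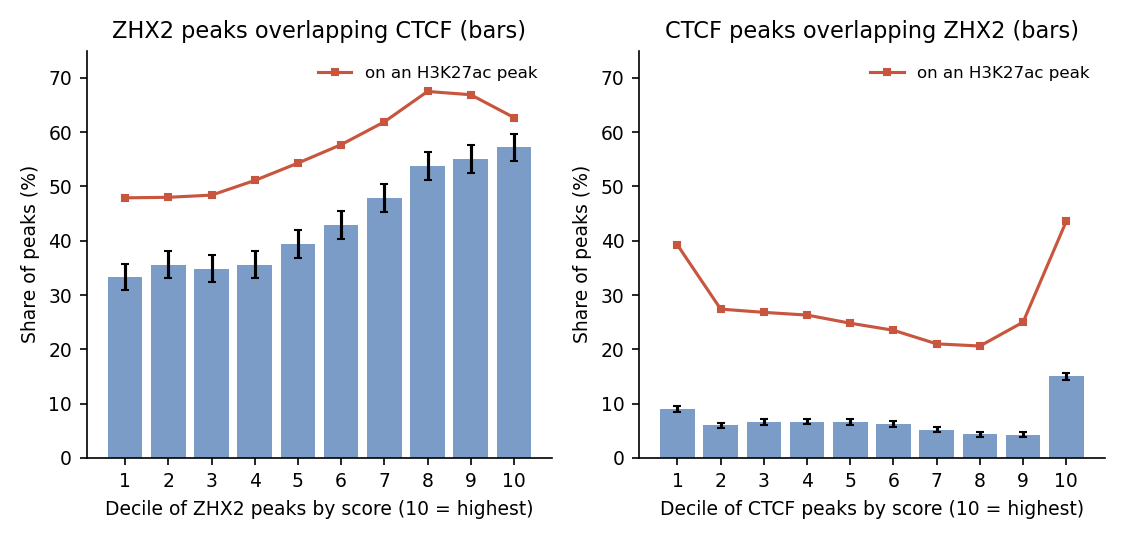
Share of ZHX2 peaks overlapping CTCF (left, bars) and of CTCF peaks overlapping ZHX2 (right, bars) by decile of the authors' score, with 95% Wilson intervals over peaks, and the share on H3K27ac as a red line. The left bars end at 57.2%, and the right bars stay below 9% until the highest decile at 15.0%.

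Genes were sorted by which protein had a peak within 1 kb of either annotated end. Of 19817 protein-coding genes, 4983 (25.1%) had ZHX2 and CTCF, 896 (4.52%) ZHX2 alone, 7288 (36.8%) CTCF alone and 6650 (33.6%) neither. With these lists most genes with ZHX2 had CTCF at an end as well. That majority turned with shorter lists: with the upper 50% of each list by score, 1783 genes had both, 2018 ZHX2 alone and 4760 CTCF alone. With the upper 50% of the CTCF list and all ZHX2 peaks, an alternative chosen after seeing the data, the counts were 2715, 3164 and 3828. Sharing a gene was not the same as sharing a site. In 4217 of the 4983 genes with both (84.6%) a ZHX2 peak at an end overlapped CTCF, and in 766 (15.4%) the peaks lay apart. The strongest peaks of the 2 proteins had summits within 100 bp in 1052 genes (21.1%) and more than 2000 bp apart in 905 (18.2%). Near the 1 kb limit, 102 genes had their nearest ZHX2 peak in the last 100 bp inside it and 93 in the next 100 bp outside, and for CTCF there were 165 on each side.

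Among genes with both proteins, those strongest for both were led by MAFA, a bZIP transcription factor gene (ZHX2 fold 18.4, CTCF fold 549). Its peaks overlapped (chromosome 8, ZHX2 143428963 to 143431106, CTCF 143430138 to 143431850) with summits 1112 bp apart. YY1, a zinc finger factor found at promoters and loops, had the highest ZHX2 fold of this group (chromosome 14, 100239275 to 100240682, fold 23.5, CTCF fold 359.6, summits 331 bp apart). DENND6B had folds of 16.1 and 451 with summits 143 bp apart, and TPBGL 13.6 and 408 with summits 78 bp apart. MLLT11 and GABPB2 are neighbours that share the same 2 peaks (18.1 and 399.5, 572 bp apart), so they are 1 site. At WDR90, a centriole-associated gene, and LRRC73 the strongest peaks lay apart, by 18779 and 3892 bp, at different places of the gene. All 8 genes held ZHX2 and CTCF peaks in hypoxia and 7 held H3K27ac, TPBGL being the exception. These counts are near the shares of all genes with both: 95.9% for hypoxia ZHX2, 94.5% for hypoxia CTCF and 93.3% for H3K27ac.

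Among genes with established names, ZHX2 alone was led by TMEM91 (chromosome 19, 41363948 to 41364700, fold 25.7), YWHAE, the gene of a 14-3-3 adaptor protein (chromosome 17, 1399166 to 1400359, fold 18.3), and AP1G1 (fold 16.9). ZNF41 (fold 16.7), TM9SF4 (fold 16.4) and STRN4, a striatin scaffold gene (fold 15.8), followed. These 6 held H3K27ac, hypoxia ZHX2 and both Flag peaks. Of all genes with ZHX2 alone, 67.0% held H3K27ac, 81.9% hypoxia ZHX2, 66.1% WT Flag and 60.3% PA Flag. YWHAE, AP1G1, TM9SF4 and STRN4 held a CTCF peak in hypoxia, and TMEM91 and ZNF41 did not. Hypoxia CTCF lay at 20.1% of all genes with ZHX2 alone. The predicted genes LOC105371216 (fold 20, second of all 8) and LOC105371206 (fold 16.3, the seventh) on chromosome 1 held hypoxia ZHX2 and no H3K27ac, CTCF or Flag peak.

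CTCF alone was led by PIK3CD, the gene of a leukocyte phosphoinositide 3-kinase (chromosome 1, 9626465 to 9627614, fold 759). C9orf50 (fold 674), BCAN, a brain matrix proteoglycan gene (fold 659), LOC124903761 (fold 647) and KCNH1 (fold 635) followed. LOC124907874 (fold 611), ARHGAP22 (fold 610.1) and ZBTB34, a zinc finger gene (fold 608), completed the 8. All 8 held CTCF in hypoxia, as did 89.6% of all genes with CTCF alone. A hypoxia ZHX2 peak lay at PIK3CD, C9orf50, BCAN, KCNH1, ARHGAP22 and ZBTB34, and PIK3CD, BCAN and ARHGAP22 had no normoxia H3K27ac peak. Of all genes with CTCF alone 62.7% held hypoxia ZHX2 and 77.6% normoxia H3K27ac.

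The gene groups differed in the other lists. Genes with both proteins held H3K27ac in 93.3% (92.5 to 93.9%), genes with ZHX2 alone in 67.0% (63.8 to 70%), genes with CTCF alone in 77.6% (76.6 to 78.5%) and genes with neither in 27.8%, against 64.4% of all protein-coding genes. Hypoxia ZHX2 lay at 95.9, 81.9, 62.7 and 16.0% of these groups in the same order, against 56.3% of all genes. Hypoxia CTCF lay at 94.5, 20.1, 89.6 and 5.82%, against 59.6%. The groups were formed by normoxia peaks of the same proteins, so these hypoxia shares are not independent of the grouping. WT Flag lay at 88.5, 66.1, 70.2 and 22.1%, against 58.5%, and PA Flag at 81.0, 60.3, 57.7 and 17.4%, against 50.2%. The WT Flag differences were smaller among genes with H3K27ac, at 92.7% with both proteins, 90.3% with ZHX2 alone, 86.2% with CTCF alone and 69.4% with neither. Among genes without H3K27ac they were 30.1, 16.9, 14.8 and 3.90%. From normoxia to hypoxia, 4532 of the genes with both (90.9%) had both again. Of genes with ZHX2 alone 562 (62.7%) kept that class, 172 (19.2%) had both and 154 (17.2%) neither. Of genes with CTCF alone 4216 (57.8%) had both in hypoxia, where the ZHX2 list is longer (32343 peaks).

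**Figure D4:**
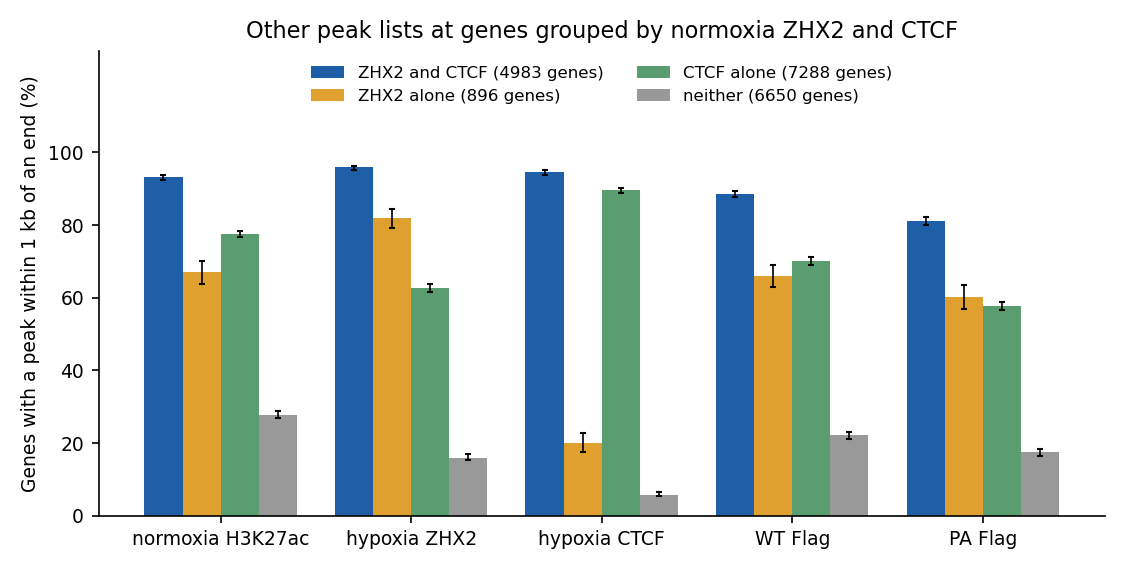
Share of genes with a peak of 5 other lists within 1 kb of an end (percent), for genes grouped by normoxia ZHX2 and CTCF; error bars are 95% Wilson intervals over genes. Genes with both proteins are highest in every list. The grouping used normoxia peaks of ZHX2 and CTCF, so the hypoxia lists of these proteins are not independent of it. This includes the hypoxia CTCF shares of genes with ZHX2 alone and CTCF alone (20.1 against 89.6%).

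Genes of CTCF, cohesin and chromatin looping held both proteins in 11 of 20 (55.0%, against 25.1% of all genes). They held ZHX2 alone in 2 (10.0%, against 4.52%) and CTCF alone in 6 (30.0%, against 36.8%). CTCF itself held both (ZHX2 fold 5.06, CTCF fold 205, summits 400 bp apart). Among cohesin subunits STAG1 (6.47 and 534, 388 bp), STAG2 (8.00 and 228, 1064 bp, the strongest peaks not overlapping) and RAD21 (2.99 and 20.1, 321 bp) held both. SMC3 held ZHX2 alone (fold 5.82) with CTCF in hypoxia, and SMC1A held CTCF alone (fold 12.8). WAPL, which releases cohesin, held CTCF alone (fold 12.1), and ESCO2, a cohesin acetyltransferase, held ZHX2 alone (fold 3.75). The one member with neither was HDAC8. Normoxia H3K27ac lay at 19 of the 20. Of all genes with H3K27ac 36.4% held both proteins, and of those without it 4.74%.

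In the HIF pathway and ZHX family 7 of 12 genes held both proteins (58.3%, beside 25.1% of all genes) and 0 held ZHX2 alone (beside 4.52%). Normoxia H3K27ac lay at 11 of the 12, and of all genes with H3K27ac 36.4% held both proteins. ZHX2 had a peak at its own gene (fold 10.2) beside CTCF (fold 102), in overlapping peaks with summits 2153 bp apart. At ZHX1 the summits were 31 bp apart (6.43 and 33.4), at EGLN1, the main oxygen-sensing prolyl hydroxylase, 75 bp (3.58 and 49.2), and at VHL 126 bp (2.64 and 8.36). HIF1A held both at its end, with summits 741 bp apart. Its ZHX2 peak was weak (fold 2.48, percentile 9.48 of its list), and its CTCF peak was near the middle of its list (fold 19.8, percentile 50.9). Inside the gene lay 12 ZHX2 peaks, of which 0 overlapped CTCF, with the nearest CTCF summit 1498 to 10488 bp away. EPAS1, EGLN2, EGLN3 and HIF1AN held CTCF alone (33.3% of the list, beside 36.8% of all genes). Genes known to be induced by hypoxia held both in 9 of 36 (25%, beside 25.1% of all genes). They held CTCF alone in 18 (50.0%, beside 36.8%) and ZHX2 alone in 0 (beside 4.52%). Normoxia H3K27ac lay at 31 of the 36. Among all genes with H3K27ac the shares were higher for both proteins (36.4%) and lower for CTCF alone (44.3%). In 8 of the 9 with both, a ZHX2 peak at an end overlapped CTCF, near the share in all genes with both (84.6%). At VEGFA (3.55 and 218) and DDIT4 (4.49 and 106) the strongest peaks of the 2 proteins did not overlap, while at PGK1, a glycolytic kinase gene, the summits were 46 bp apart (2.99 and 21.0). Of glycolytic enzymes 8 of 17 held both (47.1%), among them GAPDH (12.5 and 73.5, 309 bp apart), and 5 held CTCF alone (29.4%). Normoxia H3K27ac lay at 15 of the 17.

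Luminal identity genes were spread over all groups. FOXA1, a pioneer factor, held both (5.01 and 172, 1023 bp apart), as did TFAP2C (2.81 and 83.1, 64 bp). GATA3 (fold 6.75) and PGR (fold 18.8) held CTCF alone, XBP1 held ZHX2 alone (fold 10.1) and ESR1, the oestrogen receptor gene, held neither. Of 15 luminal transcription factors 4 held both (26.7%), 1 ZHX2 alone (6.67%) and 7 CTCF alone (46.7%), beside 25.1, 4.52 and 36.8% of all genes. H3K27ac lay at 14 of the 15, and their share with both was below the 36.4% of all genes with H3K27ac. Of oestrogen receptor targets 7 of 18 held both and 9 held CTCF alone, with H3K27ac at 17. Among those with both were AREG (4.49 and 62.9) and CCND1, whose strongest summits lay 10065 bp apart. MYC held CTCF alone (fold 70.3). Among unfolded protein response genes 7 of 13 held both, including HSPA5, the chaperone BiP (4.98 and 13.0, 137 bp apart). All 13 held H3K27ac, and of all genes with H3K27ac 36.4% held both proteins. XBP1 and HSP90B1 (fold 8.60) held ZHX2 alone in normoxia, and both held a CTCF peak in hypoxia. Cell cycle genes held both in 7 of 26 (26.9%), ZHX2 alone in 2 (MCM2 and CDK4) and CTCF alone in 11. H3K27ac lay at all 26, so their share with both was also below the 36.4% of all genes with H3K27ac.

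HOX genes held both in 20 of 39 (51.3%), ZHX2 alone in 6 (15.4%) and CTCF alone in 4 (10.3%), beside 25.1, 4.52 and 36.8% of all genes, with H3K27ac at 18 (46.2%, beside 64.4%). Neighbours in a cluster are not independent. HOXA10 had summits 138 bp apart (4.59 and 209), and HOXA9 and HOXA11 had them 5188 and 4726 bp apart. HOXB7 (fold 5.57), HOXD8 (fold 4.73), HOXB4 (fold 4.14) and HOXA3 (fold 3.12) held ZHX2 alone. Clustered protocadherins held both in 27 of 53 and CTCF alone in 24, with ZHX2 alone in 0, but the 27 genes had only 7 distinct strongest ZHX2 peaks, since many members share an annotated end. That at PCDHGA1 had a fold of 3.21, beside a CTCF fold of 215 with summits 239 bp apart. Imprinted genes held both in 5 of 22, ZHX2 alone in 3 (NNAT, DLK1 and MKRN3) and CTCF alone in 9. Cytosolic ribosomal protein genes held both in 40 of 84, such as RPS18 (4.44 and 76.0, 94 bp apart), ZHX2 alone in 6 and CTCF alone in 24. H3K27ac lay at 82 of the 84, and of all genes with H3K27ac 36.4% held both proteins. Replication-dependent histone genes held both in 22 of 70 (31.4%), ZHX2 alone in 7 and CTCF alone in 28, with H3K27ac at 61. Zinc finger genes held both in 94 of 477 (19.7%), ZHX2 alone in 32 (6.71%) and CTCF alone in 194, with H3K27ac at 405. Both lists had a lower share with both proteins than all genes with H3K27ac (36.4%). Olfactory receptors held both in 0 of 387, ZHX2 alone in 2 and CTCF alone in 27, with H3K27ac at 4.

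**Figure D5:**
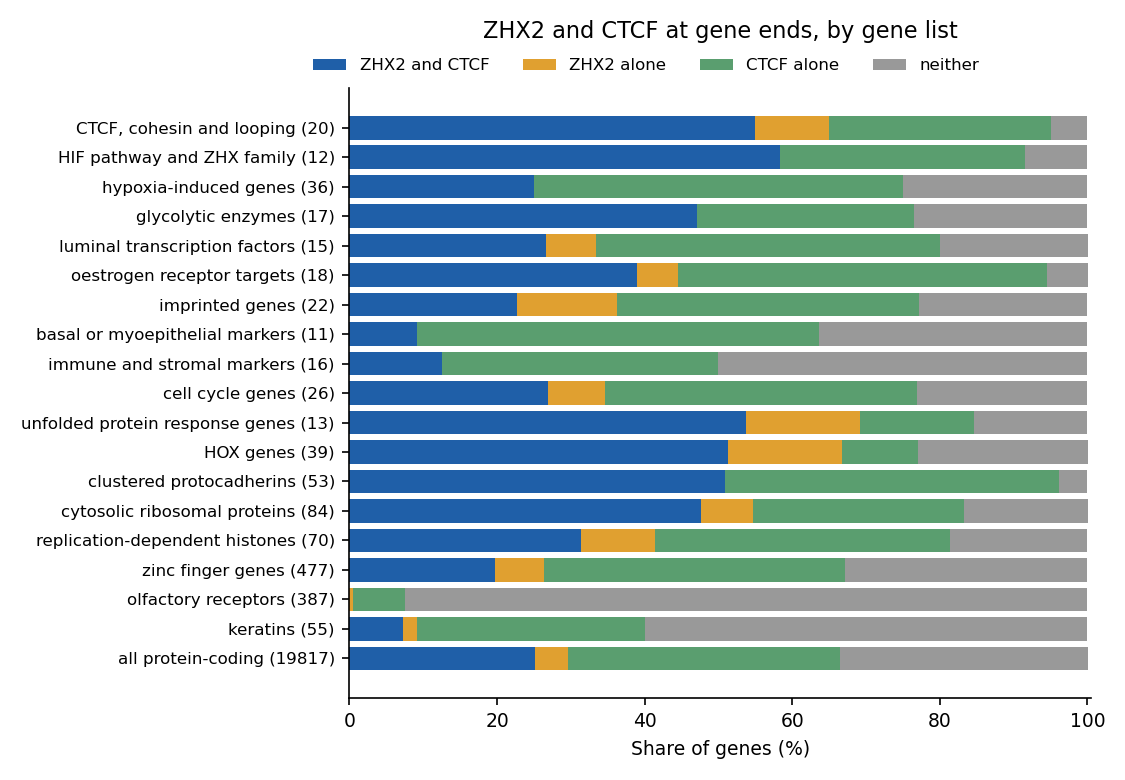
Share of genes (percent) with ZHX2 and CTCF, ZHX2 alone, CTCF alone or neither within 1 kb of an end, for 18 gene lists and all 19817 protein-coding genes, with the number of genes in brackets. Both proteins are present at 58.3% of the HIF pathway and ZHX family and at 0 of the olfactory receptors. The share is 25.1% of all genes and 36.4% of genes with H3K27ac.

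Markers of other cell types held ZHX2 in few members. Of all genes 25.1% held both proteins, 4.52% ZHX2 alone and 36.8% CTCF alone. These markers also held little normoxia H3K27ac. It lay at 36.4% of the basal or myoepithelial list, 31.2% of the immune and stromal list and 34.5% of keratins, beside 64.4% of all genes. Of all genes without H3K27ac 4.74% held both proteins, and the part of acetylation in the shares below was not tested. Basal or myoepithelial markers held both in 1 of 11 (EGFR, 5.06 and 8.75) and CTCF alone in 6 (54.5%). Immune and stromal markers held both in 2 of 16 (12.5%) and CTCF alone in 6 (37.5%, near the share of all genes). Those with both were CD74 (9.71 and 10.3) and CD14 (3.72 and 9.06), with summits 10430 and 738 bp apart and no overlap. Keratins, most of which belong to other epithelia, held both in 4 of 55 (7.27%) and CTCF alone in 17 (30.9%). The 4 were KRT83 (2.85 and 4.73), KRT7 (5.87 and 34.4), and the luminal markers KRT8 (2.39 and 10.6) and KRT19 (4.41 and 5.91). At KRT8 the strongest peaks did not overlap, and the ZHX2 fold was low in its list (percentile 6.97). KRT18, also a luminal marker, held CTCF alone (fold 99.3).

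Around gene starts the proteins had no fixed order. In 2437 genes with a single annotated start and both summits within 1 kb of it, the ZHX2 summit lay a median of 10 bp after the start (quartiles -145 and 165 bp) and the CTCF summit 5 bp before it (-215 and 247 bp). The ZHX2 summit was within 100 bp of the start in 36.6% and the CTCF summit in 24.7%. The CTCF summit was upstream of the ZHX2 summit in 51.7%, and the 2 were within 100 bp of each other in 27.5%.

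The letters of the promoters differed between groups of windows. AGGGGGC on either strand was in 17.5% of 22131 promoter windows. It was in 30.9% (27.9 to 34.2%) of the 811 windows that held both summits, in 27% (25.3 to 28.7%) of the 2713 with a CTCF summit and no ZHX2 peak, in 17.2% (14.3 to 20.6%) of the 558 with a ZHX2 summit and no CTCF peak, and in 12.1% of the 11361 with neither. AGATGGC followed another order, with 5.79% of all windows, 11.6% with both summits, 18.5% (15.5 to 21.9%) with ZHX2 and no CTCF, 4.68% (3.95 to 5.54%) with CTCF and no ZHX2, and 4.23% with neither. GC content differed as well, with medians of 71.0, 65.3, 67.0 and 55.7% in windows with both, ZHX2, CTCF and neither. At matched GC the order for AGGGGGC changed. In windows of 50 to 60, 60 to 70 and 70 to 80% GC it was in 3.64, 15.8 and 26.3% with ZHX2 and no CTCF and in 10.9, 18.8 and 30.6% with neither, so windows with ZHX2 alone were then the lower ones, with overlapping intervals above 60% GC. With both summits it was in 26.7, 28.2 and 31.1%, and with CTCF and no ZHX2 in 17, 24.3 and 36.8%, so their order turned in the last GC band. The intervals of these groups overlap in each band: 17.1 to 39.0 and 13.8 to 20.7%, 23.3 to 33.7 and 21.8 to 26.9%, and 26.7 to 35.9 and 33.8 to 40%. For AGATGGC the order of windows with ZHX2 and no CTCF and windows with both summits varied with GC. At 50 to 60% GC the shares were 27.3 and 23.3%, with overlapping intervals. At 60 to 70% GC the first share was the higher, with separate intervals. At 70 to 80% GC the order turned (5.71 and 9.25%), with overlapping intervals. In each band both shares exceeded that with CTCF and no ZHX2 (7.71, 5.19 and 2.41%). For AGGGGGC or AGATGGC together, windows with a CTCF summit and no ZHX2 exceeded windows with neither by 14.9 percentage points, and by 5.62 among windows of 60 to 70% GC. A match is a run of letters and does not show a bound site.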

How the data were processed

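Samples were grouped by title and antibody label, 2 per immunoprecipitated group. The tools named in the submitters' processing notes are cutadapt, Bowtie2 and MACS2, with GRCh38 (hg38) as the build. The authors deposited 1 peak list per group. Read depth and the handling of replicates and inputs were not given in the sources used here. No error can be put on a single peak. A peak's score, fold (a ratio over background) and −log10 q are as the authors deposited them and served to rank, filter and describe peaks of the same list. H3K27ac and Flag lists served as positions only.

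The summit was the peak's start plus the authors' summit offset. Overlap needed 1 bp, and peaks lay at a gene when within 1 kb of either end in the RefSeq table of GRCh38.p14, which gives no strand, so gene ends include transcript ends. Entries on other scaffolds were left out. Promoter windows with strand were found for 15811 of the 19817 genes, and 11775 genes had 1 start. Exons and introns were not analysed here. Shares have 95% Wilson intervals, and no p-value was computed. Python 3.11.15, pandas 2.3.3, NumPy 2.4.6, SciPy 1.17.1 and Matplotlib 3.10.9 were used, and overlap, distance and gene steps were tested on simulated data.

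The members, the 18 gene lists and the tests were chosen with earlier results of these data known. Named genes were the 8 strongest per class by fold (for both proteins, by the lower within-list percentile), up to 4 per list and class, a fixed set of genes, 6 close pairs and 6 distant ZHX2 peaks, and promoters in the same order. Of the promoters that the rule selects 1 is not printed. Other list members named and the motif AAGATGGCG were chosen after values were seen. Alternatives changed the overlap rule, list length, peak width, gene window, contigs and motif. A −log10 q of at least 5 for ZHX2, windows of 60 to 70% GC, leaving out chromosome ends and the upper 50% of the CTCF list alone were added after seeing the data.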

Additional observations from a re-analysis of the deposited data

How the results depend on the processing

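No paired analysis was possible because the lists hold no values for single replicates, and leaving out a replicate was impossible for the same reason. Of 58 alternatives, 17 left the value within its 95% interval (1.5 times for gene counts) and 41 moved it. No difference between ZHX2 peaks with and without CTCF changed sign. The share of ZHX2 peaks with CTCF (43.6%) was 38.4% with 50% of the shorter peak shared, 27% with summits within 250 bp, 26.9% with the upper 50% of each list, 11.9% with the CTCF list reduced to the ZHX2 length and 48.9% with ZHX2 peaks of −log10 q at least 5, an alternative chosen after seeing the data. In that order without the last, the share of CTCF peaks with ZHX2 (6.98%) was 6.14, 4.46, 4.31 and 10.9%. With the upper 50% of each list and with the reduced CTCF list, the median summit distance (174 bp) was 214 and 157 bp, and the share of ZHX2 summits within 100 bp of CTCF (14.9%) was 8.73 and 4.59%. Genes with both, ZHX2 alone and CTCF alone (4983, 896 and 7288) moved past 1.5 times with the upper 50% of each list, to 1783, 2018 and 4760, and with the upper 50% of CTCF only, chosen after seeing the data, to 2715, 3164 and 3828. Under either setting genes with ZHX2 alone outnumbered those with ZHX2 and CTCF. The differences between ZHX2 peaks with and without CTCF, in percentage points for H3K27ac, hypoxia ZHX2 and WT Flag, were 38.1, 32.8 and 33.7 with peaks of 200 bp, and 28.2, 20.1 and 27.6 with the upper 50%. In 4 equal groups from the lowest to the highest score they were 55.8, 53.2, 49.7 and 43.0 for H3K27ac, 53.5, 51.4, 42.0 and 17.0 for hypoxia ZHX2, and 52.9, 52.3, 47.6 and 38.8 for WT Flag. With −log10 q at least 5 they were 47.9, 36.4 and 46.0. The motif difference of 14.9 percentage points was 5.62 within windows of 60 to 70% GC. Shorter lists hold fewer peaks to meet by construction, and the cause of the other shifts was not tested.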

Other observations

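The 6 strongest by fold among ZHX2 peaks over 10 kb from a CTCF summit were inside HIF1A (chromosome 14, 61720239 to 61720723, fold 253), inside NEK9, a mitotic kinase gene (chromosome 14, 75116366 to 75116735, fold 133), at chromosome 2, 88857238 to 88857756 (fold 63.1), and 3 times on chromosome 14 between 105741468 and 105855273 (folds 60.3, 43.4 and 24.1). None of the 6 overlapped H3K27ac or Flag peaks. The peaks in HIF1A and NEK9 overlapped hypoxia ZHX2, and the other 4 did not. Of the 146 ZHX2 peaks in the top percent by fold, 79 overlapped CTCF (54.1%).

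Chromosome ends held a different mixture. Within 100 kb of the first base of a chromosome, or of the last peak end on it in the lists, lay 77 ZHX2 peaks. Of these, 54 overlapped CTCF (70.1%) and 17 belonged to the top percent by fold. Of 251 CTCF peaks there, 53 overlapped ZHX2 (21.1%). Without these regions the share of all ZHX2 peaks with CTCF was 43.4%.

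AAGATGGCG, a sequence known from YY1-type motifs that contains AGATGGC, was searched on both strands after the AGATGGC shares were seen. It was in 2.42% of all 22131 windows, in 11.5% (9.08 to 14.4%) of windows with a ZHX2 summit and no CTCF peak, in 7.77% (6.12 to 9.82%) with both summits, in 1.22% (0.867 to 1.70%) with a CTCF summit and no ZHX2 peak, and in 2.18% with H3K27ac and neither protein. Among windows of 60 to 70% GC the shares with ZHX2 alone, both and CTCF alone were 14.5, 8.45 and 1.58%, and among windows of 70 to 80% GC 4.00, 5.91 and 0.768%.

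Genes with both proteins made up 5.90% of protein-coding genes on chromosome X and 36.3% on chromosome 20. Genes with ZHX2 alone were most frequent on chromosome 19, at 6.81%.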
